A study of Mus musculus with 16 samples.

Results

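The genes described here encode proteins that process ribosomal RNA (rRNA). They were chosen from the gene annotation in the deposited tables: protein-coding genes with the Gene Ontology term rRNA processing, without the term spliceosomal complex, and not named as cytosolic or mitochondrial ribosomal proteins. This gave 50 genes out of 7233 protein-coding genes listed in either table. Of these, 42 were in the chow table and 44 in the high-fat table, and 36 were in both. The annotation chose them, but a gene also had to be listed, and both tables hold only differences that the authors called significant, so rRNA processing genes without a call are not among the 50.

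The study precipitated ribosomes from prepronociceptin (Pnoc) neurons of the hypothalamus. Pnoc encodes the precursor of nociceptin, a neuropeptide of the opioid family. All mice were C57BL/6N of the genotype PNOC-L10a-EGFP, in which a ribosomal protein tagged with green fluorescent protein allows the ribosomes of the marked cells to be precipitated. They were 10 to 12 weeks old and ate control diet (CD, here called chow) or high-fat diet (HFD) for 3 days. Each diet had 4 libraries of hypothalamus input and 4 libraries of immunoprecipitate, 16 in all. The labels do not say how the tag was driven in the marked cells, whether a library came from 1 animal or a pool, or whether the replicates were separate animals, so the authors' q-values reflect the variation among these libraries alone, which may be technical. The tables give 1 FPKM value (fragment counts scaled to transcript length and library size) for each group and none for each library, so no spread between replicates and no read depth were known, and the values below are the authors' group values.

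Ribosomal RNA is transcribed in the nucleolus as a long precursor. Guide RNAs in small nucleolar ribonucleoproteins (snoRNPs) direct the methylation and pseudouridylation of this precursor, a large assembly called the small-subunit processome folds and cuts the part that becomes the small subunit, and other factors release and mature the large subunit. Nucleases, among them the RNA exosome and RNase MRP, trim the spacers between the mature rRNAs. Mitochondria modify their own rRNAs with separate enzymes. Neurons keep prominent nucleoli and use this machinery without dividing.

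Pnoc, which marks the tagged cells, stood at 4.62 FPKM in chow input and at 19.9 FPKM on tagged ribosomes (log2 fold 2.11), and went from 4.35 to 19.8 FPKM after the high-fat diet (2.18). Of 8 pan-neuronal markers 7 were listed in each table, all higher in the immunoprecipitate, with median log2 folds of 0.65 in chow and 0.78 in the high-fat table. All 7 GABAergic markers were higher in both tables (medians 1.10 and 0.85). All 9 astrocyte and all 8 oligodendrocyte markers were lower in both tables, with medians from 8.93% to 13.3% of the input level, and 7 of 8 microglia markers were lower, with medians of 9.43% and 9.41%. None of the listed glial markers was at 0. Summed over listed markers in chow, FPKM went from 1061 to 412 for astrocytes, from 1738 to 193 for oligodendrocytes and from 53.1 to 4.87 for microglia. Aldoc, an enzyme of glycolysis, made up most of the astrocyte sum (599 to 354 FPKM in chow), and the other 8 astrocyte markers went from 462 to 58.1 FPKM, which is 12.6% of input. After the high-fat diet these sums went from 1068 to 429.7, from 1679.9 to 193 and from 54.3 to 5.64, and that of astrocytes without Aldoc from 437 to 56.1 FPKM, which is 12.8% of input. Endothelial and mural markers were lower for 5 of 8 genes in chow and 6 of 8 in the high-fat table.

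In chow-fed mice, 39 of the 42 listed rRNA processing genes were higher in the immunoprecipitate than in the input and 3 were lower. Of all listed tests, 53.8% were higher and 46.2% lower, and among listed protein-coding tests 55.7% were higher. The enrichment was shallow. The median log2 fold of the 42 genes was 0.53, a 1.44-fold difference, beside 0.37 for all listed tests. The 39 higher genes lay between 0.31 and 0.99 with a median of 0.54, while all higher tests had a median of 0.60. Of the 39, 23 fell within the middle range of higher tests (lower quartile 0.47, upper quartile 0.77), 10 lay below it and 6 above. None was 2-fold higher, which 4.38% of listed tests were. The q-values of the 42 genes in the authors' deposited table ran from 0.000379, the lowest in the table and shared by 12 of them, to 0.0446 for Krr1.

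After 3 days of high-fat diet, 41 of 44 listed rRNA processing genes were higher and 3 lower, against a background of 55.2% of listed tests higher and 44.8% lower, and 57.4% of listed protein-coding tests higher. Their median log2 fold was 0.54, beside 0.39 for all listed tests. The 41 higher genes lay between 0.31 and 1.01, and Fbll1 alone was 2-fold higher, which 3.24% of listed tests were. In the authors' deposited table the q-values of the 44 genes ran from 0.000379 to 0.0437 for Wdr36. The 3 lower genes were the same in both tables. Shares of this kind compare listed genes with listed genes. They do not say how many rRNA processing genes were measured without a call. No set test was made, since the genes were proposed with results of these data known.

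**Figure D1:**
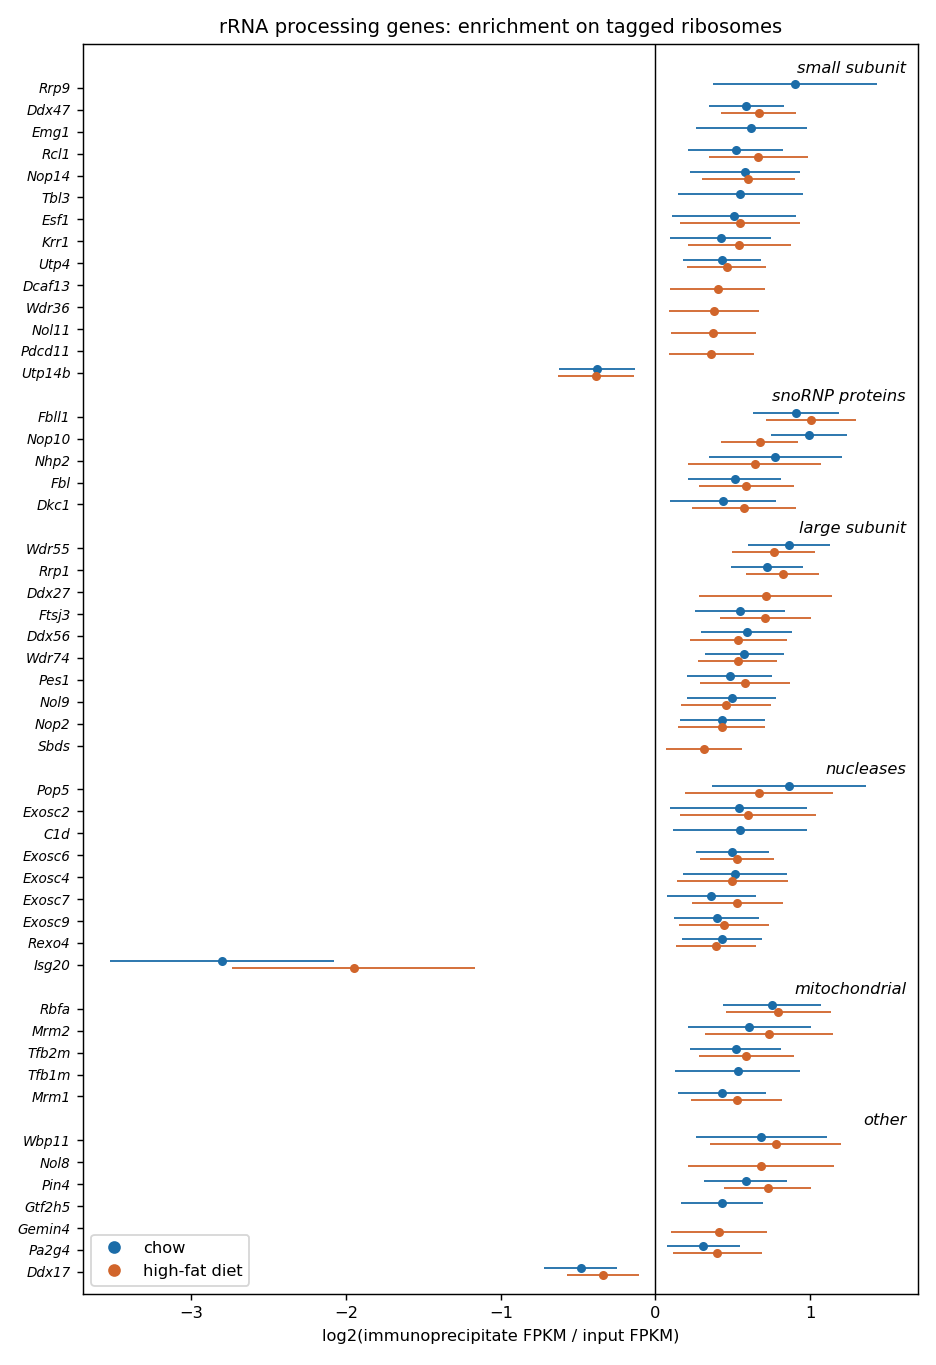
Log2 ratio of immunoprecipitate to input FPKM (x axis) for each of the 50 rRNA processing genes (y axis), grouped by role, in chow (blue) and after the high-fat diet (orange). Bars are 1 standard error recovered from the authors' test statistic, which is wider than the deposited p-values imply. A missing point means that the gene was not listed for that diet. Nearly all points lie between 0.31 and 1.01, and Isg20, Ddx17 and the entry that holds Utp14b lie below 0.

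The range of levels was wide. In chow, input values of the 42 genes ran from 3.86 FPKM for Isg20 to 177 FPKM for Rrp1, with a median of 13.4 FPKM beside 9.79 FPKM for all listed tests. Immunoprecipitate values ran from 0.553 FPKM for Isg20 to 292 FPKM for Rrp1. Among genes listed as higher, the log2 fold had a Spearman correlation with exonic length of -0.44 in chow (39 genes) and -0.35 in the high-fat table (41 genes). Only genes already called higher enter these values, and genes with small folds could not be listed. These correlations run across genes of the same libraries, which are not independent replicates, and FPKM itself is divided by transcript length.

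**Figure D2:**
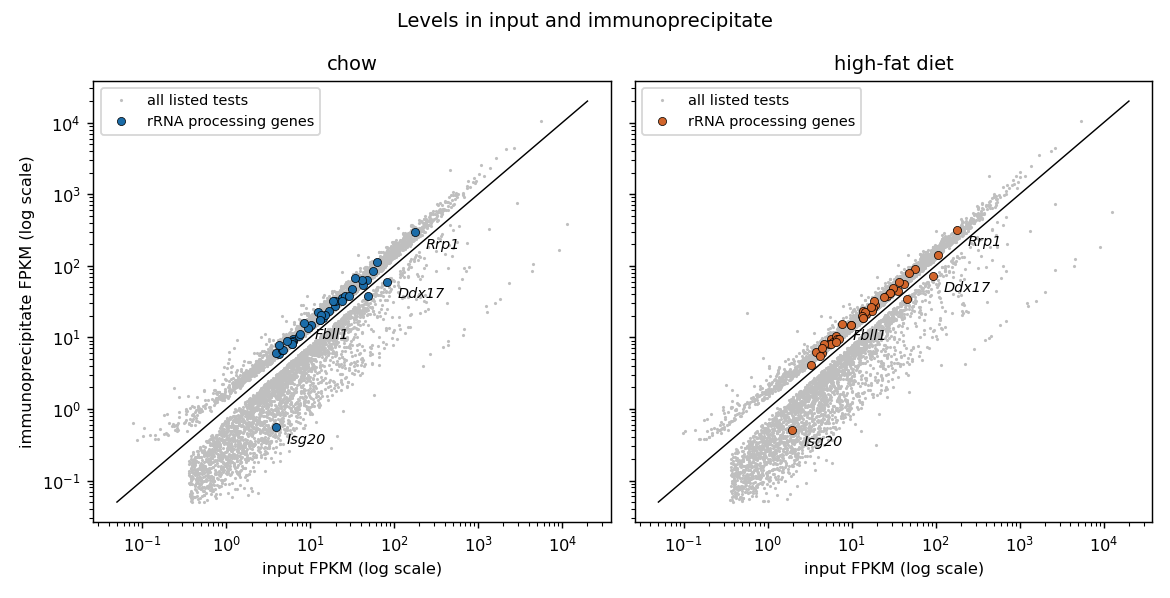
Input FPKM (x axis, log scale) against immunoprecipitate FPKM (y axis, log scale) for listed tests (grey) and rRNA processing genes (coloured), in chow (left) and after the high-fat diet (right), with equal levels on the line. The band along the line is empty because the tables hold only significant tests, and the coloured points run just above it except for Isg20, Ddx17 and the entry of Utp14b.

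Beside the marker lists, the rRNA processing genes had a median of 0.53 in chow, against 0.65 for pan-neuronal and 1.10 for GABAergic markers, -3.01 for astrocyte, -3.44 for oligodendrocyte and -3.41 for microglia markers. Their median after the high-fat diet was 0.54, against 0.78, 0.85, -2.91, -3.48 and -3.41 in the same order. In both diets it lay below both neuronal medians and above that of all listed tests. Because these are bulk libraries, fewer cells of a type and less RNA per cell cannot be told apart. The part that the loss of glial RNA from the immunoprecipitate has in the enrichment of rRNA processing genes was not tested. After subtraction of the median fold over tests at or above 1 FPKM (0.41 in chow and 0.42 in the high-fat table), 36 of 42 and 33 of 44 genes remained above 0, and their medians fell to 0.11 and 0.12. Being a median, the subtracted value has as many of those tests above it as below. The lower quartile of all higher tests (0.47 in chow and 0.47 in the high-fat table) exceeds it. Most higher tests of any kind therefore remained above 0 as well, so these counts are not particular to rRNA processing genes.

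**Figure D3:**
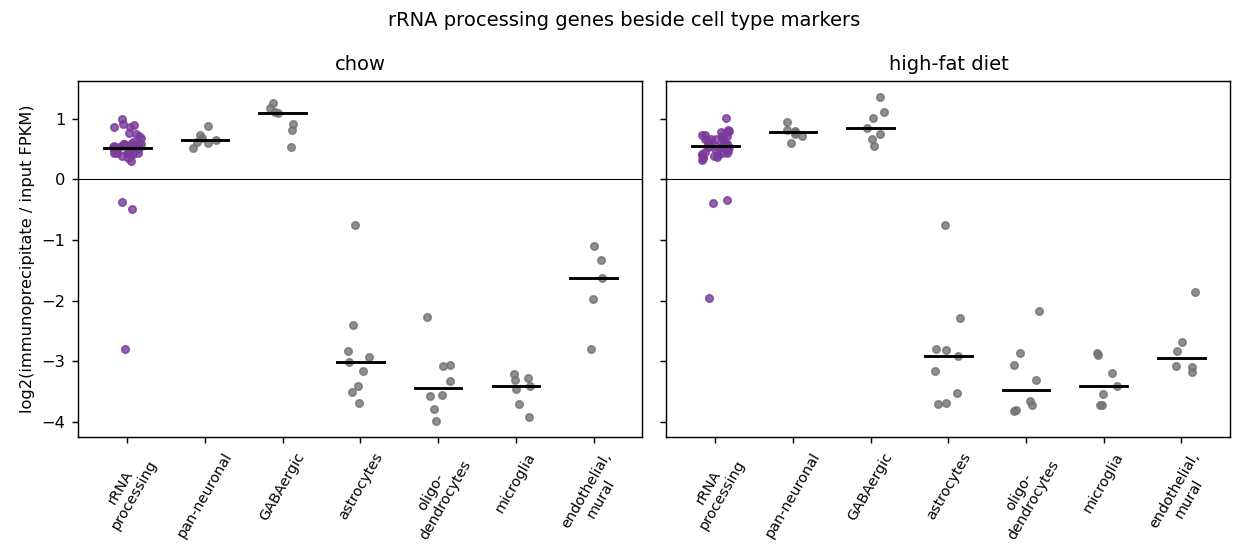
Log2 ratio of immunoprecipitate to input FPKM (y axis) of the rRNA processing genes and of markers of 6 cell classes, in chow (left) and after the high-fat diet (right). Each point is a listed gene and each line a median. In chow the rRNA processing genes have a median of 0.53, pan-neuronal markers 0.65 and astrocyte markers -3.01.

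The snoRNP proteins had the highest median fold of the 6 role groups in chow, and after the high-fat diet theirs was below that of the mitochondrial group (0.64 and 0.66). All 5 were listed in both tables and all were higher, with medians of 0.77 in chow and 0.64 after the high-fat diet. Nop10, the smallest protein of the box H/ACA particle that makes pseudouridines, went from 34.0 to 67.7 FPKM in chow (log2 fold 0.99, standard error 0.25) and from 36.7 to 58.5 FPKM after the high-fat diet (0.67, standard error 0.25). It had the highest fold of all 42 genes in chow. Standard errors here and below were recovered from the authors' test statistic and are on the log2 scale. They are conservative, since normal deviates computed from the deposited p-values were a median of 1.96 (chow) and 1.95 (high-fat) times the statistic. Whether a gene was called rests on the authors' q-value and not on these errors. Nop10 lies on chromosome 2 from 112261926 to 112263269 (plus strand, GRCm38). Nhp2, an RNA-binding protein of the same particle, went from 18.9 to 32.3 FPKM in chow and from 17.0 to 26.5 FPKM after the high-fat diet, with log2 folds of 0.77 and 0.64. Dkc1, the pseudouridine synthase dyskerin that forms the catalytic core, had log2 folds of 0.44 and 0.57. Nop10 exceeded Dkc1 by 0.55 log2 units in chow (standard error 0.42) and by 0.10 after the high-fat diet (standard error 0.42), so the order of these subunits was not resolved. The other 3 genes on the H/ACA list were not listed in either table.

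Fibrillarin (Fbl), the methyltransferase of the box C/D particle, and its paralogue Fbll1 were present at similar levels. In chow, Fbl went from 9.47 to 13.5 FPKM and Fbll1 from 8.40 to 15.8 FPKM. After the high-fat diet, Fbl went from 9.91 to 14.9 FPKM and Fbll1 from 7.59 to 15.2 FPKM. Fbll1 was thus the lower of the pair in the input and the higher in the immunoprecipitate in both diets. Its log2 fold was 0.91 in chow and 1.01 after the high-fat diet, the highest of the 44 genes in the latter, and that of Fbl was 0.51 and 0.59. The difference in log2 fold between them was 0.40 in chow (standard error 0.41) and 0.42 after the high-fat diet (standard error 0.42). This is no larger than its error in either diet, but these errors are conservative, so it does not show that the folds are equal. Fbll1 lies on the minus strand of chromosome 11 from 35797382 to 35798884, and Fbl on the plus strand of chromosome 7 from 28169710 to 28179269 (GRCm38). Their coding regions are related, so some reads could have been assigned to the wrong copy.

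Promoter windows are shown for genes that mark the extremes of the set: Nop10 and Fbll1 with the highest folds, Isg20 with the lowest, and Utp4 and Nhp2 with matches to the motifs described after them. Each window spans 250 bases before to 50 bases after a RefSeq transcription start on GRCm38.p6. It is written along the gene's strand, and capitals mark matches to CACGTG or to CCGGAAGT and its reverse complement ACTTCCGG. The windows are chr2:112261676-112261975 (plus strand) for Nop10, chr11:35798835-35799134 (minus strand) for Fbll1, chr7:78913174-78913473 (plus strand) for Isg20, chr8:106893390-106893689 (plus strand) for Utp4 and chr11:51619523-51619822 (plus strand) for Nhp2.
Nop10: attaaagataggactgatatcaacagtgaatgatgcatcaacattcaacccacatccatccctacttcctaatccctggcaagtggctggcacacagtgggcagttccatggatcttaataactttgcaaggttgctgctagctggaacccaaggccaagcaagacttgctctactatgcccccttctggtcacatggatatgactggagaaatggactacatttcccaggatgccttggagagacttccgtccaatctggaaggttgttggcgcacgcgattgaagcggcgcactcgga
Fbll1: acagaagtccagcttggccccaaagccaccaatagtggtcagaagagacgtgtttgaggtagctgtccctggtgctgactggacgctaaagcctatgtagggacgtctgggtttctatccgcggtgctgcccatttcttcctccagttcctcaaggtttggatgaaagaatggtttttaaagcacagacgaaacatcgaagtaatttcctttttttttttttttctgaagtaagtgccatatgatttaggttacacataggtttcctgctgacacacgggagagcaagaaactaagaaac
Isg20: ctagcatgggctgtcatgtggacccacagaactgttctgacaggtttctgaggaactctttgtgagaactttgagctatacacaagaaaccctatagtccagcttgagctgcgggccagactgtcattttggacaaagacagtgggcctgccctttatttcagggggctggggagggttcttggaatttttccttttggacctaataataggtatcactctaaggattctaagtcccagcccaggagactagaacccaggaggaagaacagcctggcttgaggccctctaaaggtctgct
Utp4: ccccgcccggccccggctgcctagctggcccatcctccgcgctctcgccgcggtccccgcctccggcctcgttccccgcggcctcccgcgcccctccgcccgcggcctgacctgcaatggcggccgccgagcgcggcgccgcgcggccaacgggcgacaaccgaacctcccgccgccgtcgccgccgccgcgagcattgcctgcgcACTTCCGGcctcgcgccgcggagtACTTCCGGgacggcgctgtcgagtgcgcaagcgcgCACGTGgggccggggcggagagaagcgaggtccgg
Nhp2: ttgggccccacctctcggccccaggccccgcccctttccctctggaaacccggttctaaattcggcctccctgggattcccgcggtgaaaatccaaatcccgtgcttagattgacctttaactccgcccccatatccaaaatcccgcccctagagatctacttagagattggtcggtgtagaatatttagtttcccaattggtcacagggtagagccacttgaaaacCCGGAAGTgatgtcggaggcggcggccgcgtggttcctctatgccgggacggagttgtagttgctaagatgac

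RefSeq windows were matched by symbol for 41 of the 50 genes, taking the window nearest to the annotated start, and for 5535 other listed protein-coding genes. The motif CCGGAAGT, read on both strands, was in 8 of the 41 windows (19.5%), in 7.03% of those of the other listed genes and in 5.54% of all 16522 protein-coding windows. CACGTG, which is its own reverse complement, was in 7 of 41 (17.1%), against 10.2% and 8.09%. GGGCGG on either strand was in 61.0%, 63.8% and 48.2%, TATAAA on either strand in 9.76%, 7.71% and 12.9%, and the NRF1 motif in 2.44%, 2.13% and 1.38%. These motifs were counted independently of each other, and a match is a string of letters, not a shown binding site. The Utp4 window held 2 matches to the first motif and 1 to the second and had 56 CpG dinucleotides, the Nhp2 window held 1 match to the first, and the Nop10, Fbll1 and Isg20 windows held neither and had 7, 8 and 1 CpG dinucleotides. The median number of CpG dinucleotides was 21 among the 41 windows and 20 among those of other listed genes.

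Proteins of the small-subunit processome and of small-subunit maturation made up 14 of the 50 genes, of which 10 were listed in chow (9 higher, 1 lower) and 11 after the high-fat diet (10 higher, 1 lower). Ddx47, an RNA helicase, went from 31.8 to 47.7 FPKM in chow and from 30.9 to 49.1 FPKM after the high-fat diet, with log2 folds of 0.59 and 0.67. Nop14, a scaffold protein of the processome, had log2 folds of 0.58 and 0.60, and Rcl1, which is needed for cleavage of the precursor in yeast, 0.52 and 0.67. Esf1 and Krr1, both processome proteins in yeast, had 0.51 and 0.42 in chow and 0.55 and 0.54 after the high-fat diet. Utp4 (cirhin), which joins the precursor during transcription, went from 13.2 to 17.7 FPKM in chow and from 13.5 to 18.6 FPKM after the high-fat diet. All of these were modestly higher on tagged ribosomes, and in every case the diets differed by less than the standard error.

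The remaining small-subunit genes were listed for a single diet. Rrp9, which binds the snoRNA that guides the first cleavages, went from 4.19 to 7.82 FPKM in chow, a log2 fold of 0.90 with a standard error of 0.53. Emg1, an rRNA methyltransferase, went from 41.0 to 63.0 FPKM in chow (0.62), and Tbl3, a WD-repeat protein of the processome, from 7.63 to 11.1 FPKM (0.55). Only in the high-fat table were Dcaf13 (0.40), Wdr36 (0.38), Nol11 (0.38) and Pdcd11 (0.36) listed, all low in level, from 3.24 FPKM for Pdcd11 to 7.12 FPKM for Dcaf13 in the input. The deposited span of Emg1 was 6.07 times the length of its annotated gene, and 37.3% of the exonic bases of Tbl3 overlapped Noxo1 on the genome, so part of their reads may belong to neighbours.

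The single lower gene of this class, Utp14b, shared its deposited entry with Acsl3, a fatty acid ligase gene that spans it on the same strand. The entry went from 48.4 to 37.3 FPKM in chow and from 45.5 to 34.8 FPKM after the high-fat diet (log2 folds -0.38 and -0.39). The value of Utp14b itself cannot be separated from that of Acsl3. The same holds for Exosc6, whose exonic bases all overlap Aars, an alanyl-tRNA synthetase gene, for Gemin4, listed together with Glod4 and Vps53, and for Wdr74, listed with 1700092M07Rik and Gm45736.

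Large-subunit factors had 8 of 8 listed genes higher in chow and 10 of 10 after the high-fat diet, with medians of 0.56 in both. Rrp1, named for a yeast protein of large-subunit maturation, was the most abundant of the 50 genes. In chow-fed mice its level rose from 177 FPKM (input) to 292 FPKM (immunoprecipitate), and after the high-fat diet from 178 to 316 FPKM. Its log2 folds were 0.72 and 0.82, each with a standard error of 0.23 to 0.24. It lies on the minus strand of chromosome 10 from 78400384 to 78413043. Wdr55, a nucleolar WD-repeat protein, went from 12.4 to 22.6 FPKM in chow and from 13.5 to 23.02 FPKM after the high-fat diet (0.86 and 0.76). Ftsj3, an rRNA methyltransferase, had 0.55 and 0.71, and Pes1, a core protein of large-subunit assembly, 0.48 and 0.58. The helicase Ddx56 had 0.59 and 0.53, the shared entry of Wdr74 had 0.58 and 0.53, the polynucleotide kinase Nol9 had 0.49 and 0.46, and the cytosine methyltransferase Nop2 had 0.43 in both. The helicase Ddx27 (0.71) and Sbds (0.31), which acts on late large subunits, were listed after the high-fat diet alone.

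Nucleases and their partners were higher with 1 exception. Of 9 genes, 8 were higher in chow and 7 of 8 listed were higher after the high-fat diet. Among subunits of the RNA exosome, which degrades RNA from its end, Exosc2 had log2 folds of 0.54 in chow and 0.60 after the high-fat diet, Exosc4 0.51 and 0.50, Exosc7 0.36 and 0.53, and Exosc9 0.39 and 0.44. The entry shared by Exosc6 and Aars had 0.50 and 0.53. C1d, an exosome cofactor, was listed in chow (0.54), and Rexo4, an exonuclease, had 0.43 and 0.39. Pop5, a subunit of RNase P and RNase MRP, went from 61.6 to 112 FPKM in chow and from 56.7 to 90.1 FPKM after the high-fat diet (0.86 and 0.67, standard errors 0.50 and 0.48). The deposited span of Pop5 was 3.89 times that of the annotated gene, that of Exosc2 12.6 times and that of Exosc4 11.1 times. Of the exonic bases of Exosc4, 19.8% overlapped Oplah.

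Isg20, an interferon-induced exonuclease best known for its action on viral RNA, went the other way. In chow-fed mice it fell from 3.86 FPKM (input) to 0.553 FPKM (immunoprecipitate), which is 14.3% of input (log2 fold -2.80, standard error 0.73). After the high-fat diet it fell from 1.96 to 0.508 FPKM, which is 25.9% of input (log2 fold -1.95, standard error 0.79). It was the only rRNA processing gene with at least a 2-fold depletion, which 28.7% of listed tests had in chow and 28.2% after the high-fat diet. Isg20 lies on the plus strand of chromosome 7 from 78913424 to 78920396, with no exonic overlap with another protein-coding gene. In chow the median share of input was 12.4% for astrocyte, 9.19% for oligodendrocyte, 9.43% for microglia and 32.5% for endothelial and mural markers. After the high-fat diet it was 13.3%, 8.93%, 9.41% and 12.9% in the same order. The part of any cell type in the depletion of Isg20 was not tested.

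Of the 50 genes, 5 act on mitochondrial rRNA or transcription, and all that were listed were higher, 5 in chow and 4 after the high-fat diet. Rbfa, a mitochondrial ribosome-binding factor, went from 5.26 to 8.87 FPKM in chow and from 4.73 to 8.20 FPKM after the high-fat diet (0.75 and 0.79). The ribose methyltransferases Mrm1 and Mrm2 had log2 folds of 0.43 and 0.61 in chow and 0.53 and 0.74 after the high-fat diet. Tfb2m, a mitochondrial transcription factor related to rRNA methyltransferases, had 0.52 and 0.59. Tfb1m, which dimethylates the small mitochondrial rRNA, was listed in chow only (0.53), with a deposited span 6.00 times that of its gene.

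The other 7 genes were not placed in any of these role groups. Ddx17, an abundant RNA helicase that also acts in splicing and transcription, was lower, from 82.4 to 59.0 FPKM in chow and from 92.0 to 72.7 FPKM after the high-fat diet (log2 folds -0.48 and -0.34). Pin4, a prolyl isomerase, went from 56.1 to 84.0 FPKM in chow and from 47.8 to 79.0 FPKM after the high-fat diet (0.58 and 0.73). Wbp11, a splicing-related protein, had 0.68 and 0.78, and Pa2g4, a growth-regulating protein that binds ribosomes, had 0.31 and 0.40. Gtf2h5, a subunit of the transcription factor TFIIH, was listed in chow (0.43), and Nol8, a nucleolar protein (0.68), and the shared entry of Gemin4 (0.41) after the high-fat diet.

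Genes that carry the same annotation but were left out by the choice were also listed. The exosome helicase Mtrex and Frg1, both also annotated to the spliceosome, were higher in both diets, with log2 folds of 0.34 and 0.45 in chow. Of 4 ribosomal protein genes with the annotation, Rpl27 was higher in both tables, while Rps15, Rps19 and Rps27 were listed after the high-fat diet only and were lower. Protein-coding genes with symbols that begin with Rpl or Rps and a digit had 8 higher and 12 lower of 20 listed in chow. After the high-fat diet they had 4 higher and 25 lower of 29 listed. Their medians were -0.32 and -0.47, on the other side of 0 from those of the rRNA processing genes. This name pattern can also match genes that encode no ribosomal protein, such as S6 kinases, and these were not removed. The difference between both groups was not tested.

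Lists of the wider pathway, written from general knowledge but with earlier results of these data known, show how many genes had no call. Over 9 lists with 214 different genes, of which 39 are among the 50, 82 were higher and 8 lower in chow and 124 were not listed. After the high-fat diet 85 were higher and 5 lower, and again 124 were not listed. This is 38.3% higher and 3.74% lower in chow, beside 16.3% and 12.7% of the 21951 annotated protein-coding genes, many of which the hypothalamus may not express. After the high-fat diet it is 39.7% and 2.34%, beside 16.4% and 12%. The 39 had to be listed in either table to be among the 50, which raises the shares of higher genes in the lists. Leaving the 39 aside, 50 of the other genes were higher and 6 lower in chow, and 53 were higher and 3 lower after the high-fat diet.

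**Figure D4:**
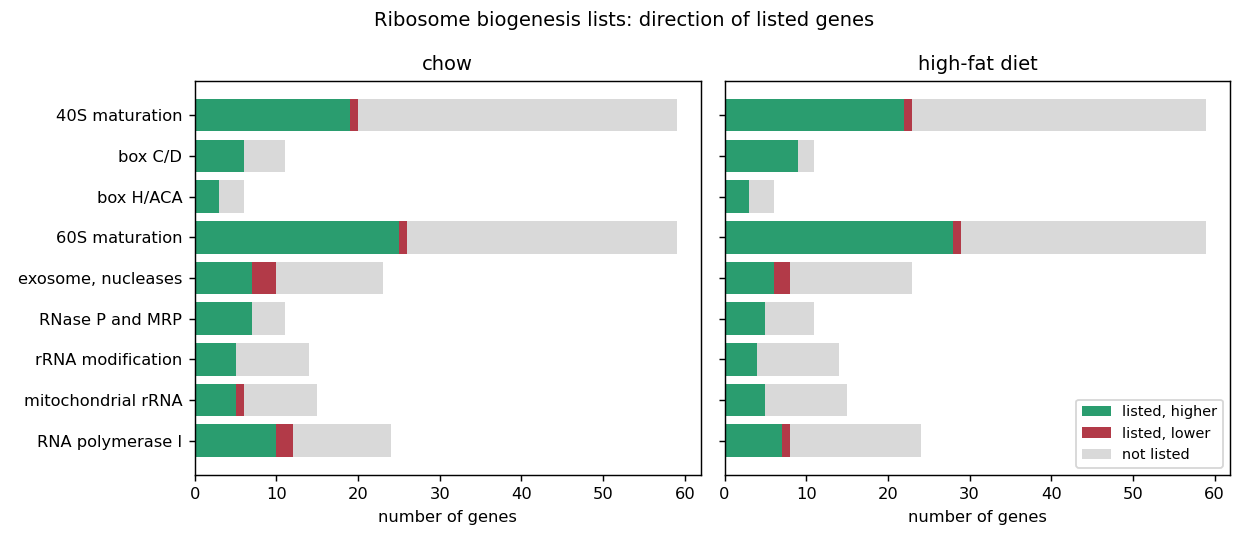
Number of genes (x axis) of 9 ribosome biogenesis lists (y axis) that were listed as higher in the immunoprecipitate (green), listed as lower (red) or not listed (grey), in chow (left) and after the high-fat diet (right). Listed genes are mostly higher, and most lists have many genes that are not listed.

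RNase P and RNase MRP subunits had 7 of 11 genes higher and 0 lower in chow, with a median log2 fold of 0.86, and 5 higher and 0 lower after the high-fat diet (0.74). Rpp25 (1.15 and 1.17) had the highest fold of them in both tables. The list of large-subunit maturation had 25 higher and 1 lower of 59 in chow and 28 higher and 1 lower after the high-fat diet. The lower gene was Mdn1, a very large ATPase that remodels the large subunit (-1.21 and -1.06). Small-subunit maturation had 19 higher and 1 lower of 59 in chow and 22 and 1 after the high-fat diet, led by Rrp7a (1.03 and 0.91), with the Utp14b entry as the lower one. The box C/D list had 6 of 11 higher in chow and 9 of 11 after the high-fat diet, with 0 lower in each.

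RNA polymerase I, which transcribes the rRNA genes, and its factors had 10 higher and 2 lower of 24 in chow and 7 higher and 1 lower after the high-fat diet. Ubtf, which organises active rRNA genes, had log2 folds of 0.53 and 0.62, and the subunit Polr1h had 0.65 and 0.55. The lower genes were Ttf1, a termination factor, in chow (-0.79) and Pwwp2a in both diets (-1.50 and -1.52), a chromatin-binding protein that is not known as part of this polymerase. Polr2f (1.05 in chow), a subunit that several RNA polymerases share, had the highest fold of the list. The exosome list had 7 higher and 3 lower of 23 in chow, the lower ones being Isg20, Zcchc7 (-1.11) and Eri1 (-0.34). It had 6 higher and 2 lower genes after the high-fat diet, Isg20 and Zcchc7 (-1.01). The list of rRNA modification enzymes had 5 of 14 higher in chow and 4 of 14 after the high-fat diet, the mitochondrial list 5 higher and 1 lower of 15 (Mettl15, a methyltransferase of the small mitochondrial rRNA, at -0.83) and then 5 and 0, and the box H/ACA list 3 of 6 higher in each.

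Whether the enrichment of these genes depended on the diet was examined next. For the 36 genes listed in both tables, the chow and high-fat folds had the same sign in 36 of 36, as they did in all 5149 tests in both tables (100%). After centring on the median of those tests, 34 of 36 differences were within 0.25 log2 units (94.4%), beside 86.9% of all tests. Among tests higher in both diets the counts were 32 of 33 genes, beside 94.6% of 2983 tests, so these shares are near the background. None of the 36 passed a z-test built from the authors' statistics (0 with an adjusted p under 0.05, 0 with an unadjusted p under 0.05). The lowest unadjusted p was 0.354, for Nop10. Of all 5149 tests, 0 (0%) passed the adjusted threshold, and 1 (0.0194%) had an unadjusted p under 0.05. Without any diet effect, correct errors would give a share near that threshold, so this test rarely calls a difference. Tests in both tables also had to carry a call in each diet. That 0 of the 36 passed therefore says little about the diets. At the median standard error of 0.41, the smallest difference that gives an unadjusted p of 0.05 is 0.80 on the log2 scale. With standard errors taken from the deposited p-values the median was 0.23, the needed difference 0.44, and again 0 of the 36 passed. No p-value of the authors' test for these genes was below 5e-05, which Nop10, Isg20 and others had in both diets. For such genes this second error is set by that limit and may be too large, so it cannot decide whether their folds differ. For a typical gene of the set, differences below these sizes could not be detected with the respective error.

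Nop10 and Isg20 had the largest differences. For Nop10 the high-fat fold was lower by 0.32 log2 units after centring (difference -0.32, 95% interval -1.01 to 0.36). Its input was 108% and its immunoprecipitate 86.5% of the chow value. For Isg20 the high-fat fold was higher by 0.85 log2 units (95% interval -1.25 to 2.94), with the input at 50.9% of the chow value and the immunoprecipitate at 91.8%. Relative to their errors, Ddx17 (0.14), Exosc7 (0.16) and Ftsj3 (0.16) came next among genes with a higher fold after the high-fat diet. The intervals include 0 and do not show that the diets act alike.

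Across the 36 genes, the folds of both diets had a Pearson correlation of 0.98 and a Spearman correlation of 0.87, and the Pearson correlation was 0.93 without Isg20. The genes of both tables all passed the authors' threshold in both, which leaves out small folds. The diets differed in sign of the difference more often one way: 25 of 36 genes had a higher fold after the high-fat diet, beside 52.1% of all tests in both tables, with a median centred difference of 0.06 among the 36. The 36 genes come from the same libraries and are not independent, and this shift was not tested.

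**Figure D5:**
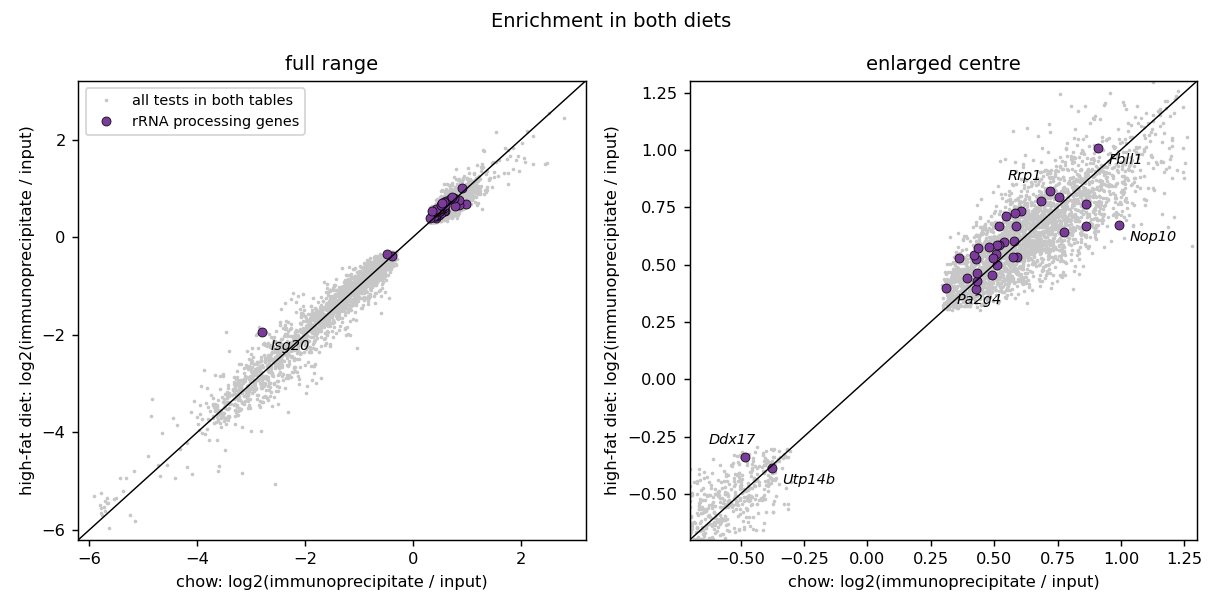
Log2 ratio of immunoprecipitate to input in chow (x axis) against the same ratio after the high-fat diet (y axis) for tests in both tables (grey) and the 36 rRNA processing genes in both (purple), over the full range (left) and enlarged (right). Points on the line have equal folds, and Nop10 (0.99 and 0.67) and Isg20 (-2.80 and -1.95) lie farthest from it among the 36.

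The median levels of the genes were close between the diets in both fractions, while single genes varied more. The median input level after the high-fat diet was 98.3% of the chow level over the 36 genes (range 50.9% to 117%), beside 99.0% for all tests in both tables. The median immunoprecipitate level was 103% (range 80.4% to 123%), beside 99.2%. Isg20 had the lowest input ratio, Pop5 the lowest immunoprecipitate ratio and Ddx17 the highest immunoprecipitate ratio. It is not known whether the tables were scaled together, and these ratios have no error.

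A further 14 genes were listed for 1 diet alone, all of them higher there. Of all listed tests, 6686 in chow and 6540 in the high-fat table, 5149 with at least 1 FPKM were in both. The rest were listed once or left out by that filter, so the 14 genes are not shown to be more tied to 1 diet than other tests. The 6 listed only in chow were C1d, Emg1, Gtf2h5, Tfb1m, Tbl3 and Rrp9, with q-values from 0.0019 to 0.0343 in the authors' deposited table. The 8 listed only after the high-fat diet were Ddx27, Nol11, Nol8, Dcaf13, Pdcd11, Sbds, Wdr36 and Gemin4, with q-values from 0.00322 to 0.0437 in the authors' deposited table. Their values for the other diet were not analysed here, so no difference between the diets can be read from a gene being listed once.

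Other terms of the annotation that chose the 50 genes were common among them. Such terms often accompany rRNA processing in that annotation, so their shares are not independent of the choice. The term nucleolus was attached to 43 of them (86%), against 3.79% of the other listed protein-coding genes, and the term RNA binding to 25 (50%), against 3.97%. Methyltransferase activity was attached to 9 (18%, against 0.794%), and Cajal body, a nuclear body where snoRNPs mature, to 6 (12%, against 0.278%). The term mitochondrion was attached to 5 (10%), close to the 10.0% of other genes. By position, 9 of the 50 lay on chromosome 11 (18%), beside 8.37% of the other listed genes, among them Fbll1, Nhp2, Pes1 and Ftsj3. Annotated small RNAs lay within 4 of the 50 on the same strand, namely within Dkc1 (a snoRNA) and within Rrp1, Rcl1 and Pa2g4 (miRNAs), which is 8% beside 7.30% of other genes.

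How far neighbours could share reads was counted on the annotation. Of the 50 genes, 18 had at least 1 exonic base in common with another protein-coding gene on either strand, and in 3 (Tbl3, Gemin4 and Exosc6) this exceeded 25% of the exonic bases. The deposited span was over 2 times the annotated gene in 13. These were Nhp2, Emg1, Pes1, Mrm2, Dkc1, Exosc4, Tfb1m, Wdr36, Exosc2, Gemin4, Pop5, Utp14b and Exosc6. The 31 genes with a single identifier and no exonic overlap had 24 higher and 1 lower in chow and 28 higher and 1 lower after the high-fat diet, with median log2 folds of 0.52 and 0.59. Wdr36, Exosc2 and Pop5 remained among the 31 despite their long spans. Ddx17 was left out there for an overlap of 0.052% of its exonic bases with Kdelr3.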

How the data were processed

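RNA of hypothalamus input and of GFP immunoprecipitates was measured by sequencing in 16 libraries. Per the labels' protocols, cDNA was amplified with the Ovation RNASeq System V2 and libraries were made with Nextera XT, which can shift levels between samples. Whether reads were assigned by strand is not given in the sources used here. Genome build and tools, per the submitters' processing notes, were GRCm38.p6, Cufflinks 2.2.1, Cuffdiff, StringTie 1.3.4d and HISAT2 2.1.0. Per the file headers, the authors deposited for each diet an FPKM value per group, the log2 fold, a test statistic (a signed score), and a p-value and q-value. The tables hold significant entries only, 6686 chow tests and 6540 high-fat tests once identifiers with the same locus and values were merged.

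Log2 folds were recomputed from FPKM without a pseudocount and differed from the deposited log2 by at most 1.31e-05. The planned call for tables without values per library was the authors' q-value at 0.05. The standard error was the log2 fold over the deposited statistic. It is conservative, since normal deviates computed from the deposited p-values were a median of 1.96 (chow) and 1.95 (high-fat) times the statistic. The diet difference was a two-sided z-test over 5149 tests with at least 1 FPKM, with Benjamini-Hochberg adjustment (SciPy 1.17.1). It is a normal approximation, because no values per library exist. Tested on simulated data with 200 changed of 5149 tests, it recovered 8% of differences of 1 log2 unit, 73% of 2 and 93% of 3. Depth is unknown. Names and positions came from GENCODE M21 (GRCm38), promoters from RefSeq. The genes and lists were chosen with earlier results of these data known. Named were the extremes by fold, level and diet difference and the leaders of each role, which with the remaining genes covered all 50. Alternatives were other filters, centring, a pseudocount, a stricter q and other memberships. Columns of per-sample values left unused numbered 0.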

Additional observations from a re-analysis of the deposited data

How the results depend on the processing

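No paired analysis was possible because the tables hold 1 value per group, and for the same reason no replicate could be left out. Depth is unknown, so limits set by read counts could not be given. Centring folds on the median of listed tests left 36 higher and 6 lower genes in chow and 33 and 11 after the high-fat diet, with medians of 0.11 and 0.12. A q under 0.01 left 24 higher genes in each diet and 1 lower gene after the high-fat diet. Differences of 2-fold or more were found for 0 higher and 1 lower genes in chow and by 1 and 1 after the high-fat diet. Genes with no exonic overlap and a single identifier, an alternative chosen after seeing the data, numbered 24 higher and 1 lower in chow and had 1 lower after the high-fat diet. These counts differ by construction, since each alternative keeps fewer genes or moves the zero point. A filter at 1 FPKM, a pseudocount of 1 FPKM, loci with a single identifier, a stricter nucleolar annotation and the return of spliceosomal genes kept every count within 1.5 times and every median above 0. The count of genes whose enrichment differed between diets was 0 without the filter, without centring and with standard errors from the deposited p-value. With the last, the lowest unadjusted p of the z-test among the 36 genes was 0.273, for Nop10. Its deposited p-values lie at the lowest value in both diets, so this error may be too large.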
